A study of Saccharomyces cerevisiae with 24 samples.

Results

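FLAG-tagged Rph1 was mapped on chromatin of Saccharomyces cerevisiae BY4741, a laboratory haploid of mating type a, in cells treated with rapamycin. The subject here is every gene that the authors listed with a FLAG-Rph1 fold enrichment in rapamycin: 705 of the 7052 entries that the count tables and both lists hold together. Neighbouring genes with an identical value were counted as 1 locus, which gave 614 loci, of which 532 held 1 gene, 77 held 2, 4 held 3 and 1 held 7. The matching list from untreated cells held 466 genes in 373 loci. Each condition had 2 FLAG immunoprecipitations and 2 inputs, all labelled wild type, so the strain that carries the tag is given by no more than that label. Whether each list was made from all of them is not given in the sources used here. How the tag was placed, whether an untagged strain was immunoprecipitated, and the dose and duration of rapamycin are not given in the sources used here. The lists give the gene's own start and end in place of the peak's, so where along a gene the signal lay cannot be read from them.

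RNA-seq of the same background was used as a second, separate readout. Its 4 groups held 2 libraries each: wild type untreated, rph1 deletion untreated, wild type with rapamycin and rph1 deletion with rapamycin, with 18037199 to 24769193 counted reads in a library. RPH1 had 1057, 1850, 1695 and 2107 counts in the wild-type libraries and 30 to 82 in the deletion libraries, so the genotype labels held. The a-specific genes STE2, MFA1, MFA2 and BAR1 were counted in every library, and the alpha pheromone gene MF(ALPHA)1 had 3 to 12 counts. The alpha-specific genes STE3 and SAG1, by contrast, passed the filter on low counts, so the alpha genes were not uniformly near absent. LEU2 had 0 counts, and URA3 and MET17 had at most 1, as in BY4741. HIS3, of which BY4741 keeps a part, had 1391 to 8201 counts. Replicates of a group ranked genes alike, with a Spearman correlation across genes of 0.9854 to 0.9953. No label states that replicates were separate cultures, so p-values measure the spread between these libraries only.

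Rph1 is a JmjC-domain demethylase of histone H3, best known for removing methyl groups from lysine 36, and carries zinc fingers through which it has been described as a repressor of stress, DNA damage and autophagy genes. Rapamycin inhibits TORC1, the kinase complex that couples growth to nutrients. In yeast this shuts down ribosomal protein and ribosome biogenesis genes, and opens the nitrogen catabolite genes driven by GATA factors, the retrograde genes driven by Rtg1 and Rtg3, and the general stress genes driven by Msn2 and Msn4.

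CIT2, SPO24 and CSS1 headed the rapamycin list. Fold enrichment, a ratio computed by the authors with no replicate value and no error, ran from 5.01 to 1300 over the 705 genes, with a median of 25.3 and quartiles at 16.2 and 54.9. CIT2, which encodes the peroxisomal citrate synthase and is the textbook target of the retrograde pathway, stood first at 1300 (sacCer3, chromosome III, 120946 to 122328, minus strand). The next loci were SPO24 at 791 and CSS1 at 782, the stress-induced cell wall glycoprotein gene SED1 at 691, and the locus at 619 shared by the peroxiredoxin gene AHP1 and the cell wall mannoprotein gene CCW12. They were followed by GLN1, the glutamine synthetase gene, at 593, the neighbouring pair YDR524W-C and YDR524C-B, also at 593, and DLD3, a second retrograde target, at 576. At the low end stood VTC1, a subunit gene of the vacuolar polyphosphate polymerase, at 5.01.

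**Figure D1:**
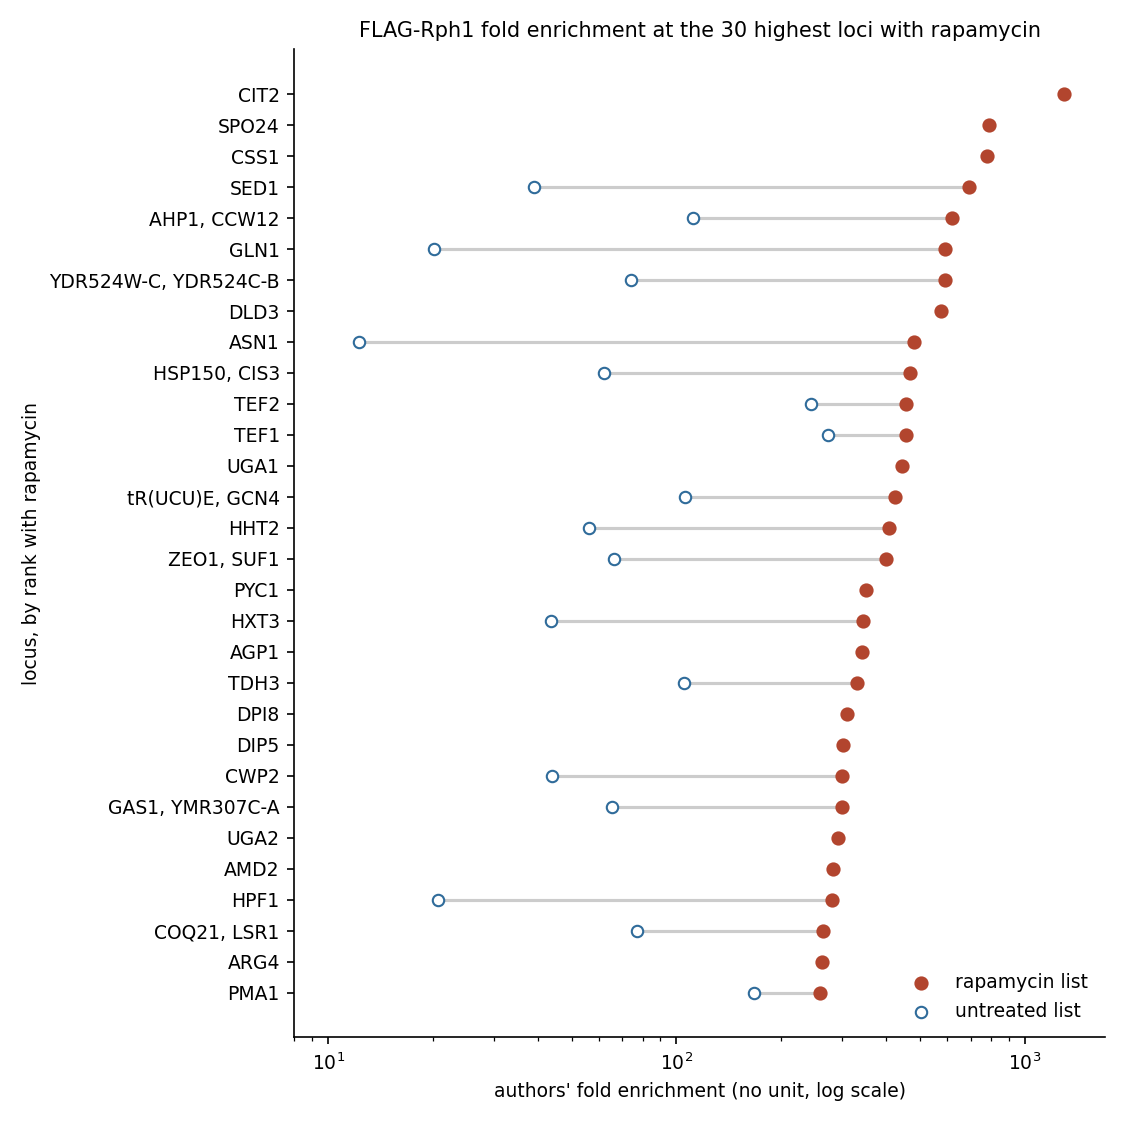
Authors' fold enrichment (horizontal log axis, no unit) at the 30 loci ranked highest with rapamycin, with filled points for the rapamycin list and open points for the highest value of the same locus on the untreated list. CIT2 leads at 1300, and loci without an open point had no gene on the untreated list.

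Ranks 9 to 20 mixed nitrogen, growth and carbon genes. ASN1, an asparagine synthetase gene, stood at 482. The cell wall genes HSP150 and CIS3 shared 468. TEF2 and TEF1, which encode the same elongation factor eEF1A, stood at 457 and 456, and since their coding sequences are nearly identical, how much of each value belongs to which copy is uncertain. UGA1, the gamma-aminobutyrate transaminase gene, stood at 444, and GCN4, the activator of amino acid biosynthesis, at 426 together with the arginine tRNA gene tR(UCU)E. The histone H3 gene HHT2 followed at 409, ZEO1 with the tRNA gene SUF1 at 400, the pyruvate carboxylase gene PYC1 at 351, the hexose transporter gene HXT3 at 343, the amino acid permease gene AGP1 at 341 and the glyceraldehyde-3-phosphate dehydrogenase gene TDH3 at 330.

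Of the 20 highest loci, 13 also had a gene on the untreated list and 7 did not: CIT2, SPO24, CSS1, DLD3, UGA1, PYC1 and AGP1. The next locus without an untreated entry was DPI8 at 310. Among the 100 highest loci, down to a fold enrichment of 76.7, 56 had a gene on the untreated list and 44 did not. Over the whole list, 276 genes were on both lists, which is 39.1% of the rapamycin list and 59.2% of the untreated list. The other 429 rapamycin genes, 60.9%, were on that list alone. With 1 list per condition and no replicate values, no test of the difference between conditions was possible. A gene missing from a list is a gene without a listed value, not one shown to lack Rph1.

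In several gene classes a larger share was listed than the 10% of all entries. The 29 classes examined held 338 of the 705 listed genes. The other 367 were in none of them, so the shares by class do not describe them. Of 12 genes of the retrograde response, 9 were listed with rapamycin and 0 untreated. The 9 were CIT2, DLD3, PYC1, the mitochondrial citrate synthase gene CIT1 at 237, the aconitase gene ACO1 at 70.7, IDH2, LYS12, IDH1 and, at 11.2, the transcription factor gene RTG3. The 3 not listed were RTG1, RTG2 and MKS1, which encode regulators of the pathway. Genes under nitrogen catabolite repression gave 18 of 44 with rapamycin and 1 of 44 untreated, with a median of 53.4 against 25.3 for the whole list. That untreated gene was GLN1, at 20.2 untreated and 593 with rapamycin. Highest after GLN1 came UGA1, AGP1, the dicarboxylic amino acid permease gene DIP5 at 302 and the succinate semialdehyde dehydrogenase gene UGA2 at 292. GAP1, the general amino acid permease gene, stood at 86.4 and UGA4, the gamma-aminobutyrate permease gene, at 54.8.

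Amino acid biosynthesis gave 38 of 65 genes with rapamycin and 6 of 65 untreated. Its values ran from 12.7 to 482, and 15 of the 38 lay above the upper quartile of the list. Members included ASN1, GCN4 and ARG4, the argininosuccinate lyase gene at 262. Amino acid permeases gave 9 of 25 against 2 of 25 untreated, several of which are also on the nitrogen list. The sulfur amino acid genes were less represented, at 5 of 32, with the methionine synthase gene MET6 at 58.2 and the cystathionine beta-synthase gene CYS4 at 24.7.

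Mitochondrial energy genes formed a broad group of lower values. Of 56 genes of the TCA cycle and respiratory chain, 24 were listed with rapamycin and 2 untreated, with a median of 23.3. CIT1 led, followed by ATP2, the beta subunit gene of the ATP synthase, at 83.6 and IDP1, the mitochondrial NADP isocitrate dehydrogenase gene, at 73.1. No succinate dehydrogenase subunit gene, SDH1 to SDH4, was listed. Of 66 mitochondrial ribosomal protein genes, 1 was listed, MRP51 at 12.2.

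The proteasome list, which holds UBI4 and RPN4 beside the subunit genes, gave 26 of 35 genes with rapamycin and 1 untreated, RPN5. The 9 not listed were PRE5, PUP3, RPT6, RPN1, RPN7, RPN10, RPN11, RPN13 and SEM1. Apart from the polyubiquitin gene UBI4 at 188, which the same list holds, its values were modest, at 6.79 to 40.9, with RPN5 at 40.9 and PUP2 at 35. The transcriptional activator gene RPN4, chosen for mention after its value was seen, stood at 20.6. Chaperone genes gave 15 of 28 with rapamycin against 7 untreated, led by HSC82 at 145 and SSA2 at 110, each of which has a close paralogue.

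Cell wall genes and histone genes were listed in both conditions and carried larger values with rapamycin. Cell wall genes gave 28 of 53 with rapamycin and 20 untreated, and of the 18 on both lists 16 had the larger value with rapamycin, with medians of 140 and 27.4. Of 11 histone genes, the same 8 core genes were on both lists, and all 8 had the larger value with rapamycin, with medians of 102 and 22.6. HHT2 stood at 409 against 56, HHF2, a histone H4 gene, at 138 against 31.4, and HTB2, a histone H2B gene, at 137 against 26.2. The variant H2A.Z gene HTZ1, the linker histone gene HHO1 and the centromeric H3 gene CSE4 were not listed. Because the histone genes exist as near-identical copies, the values of the copies may share reads. Glycolytic genes gave 16 of 25 against 13, and 10 of the 13 on both lists were larger with rapamycin, among them TDH3 at 330 against 105, the pyruvate kinase gene CDC19 at 250 against 145 and the aldolase gene FBA1 at 161 against 108.

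**Figure D2:**
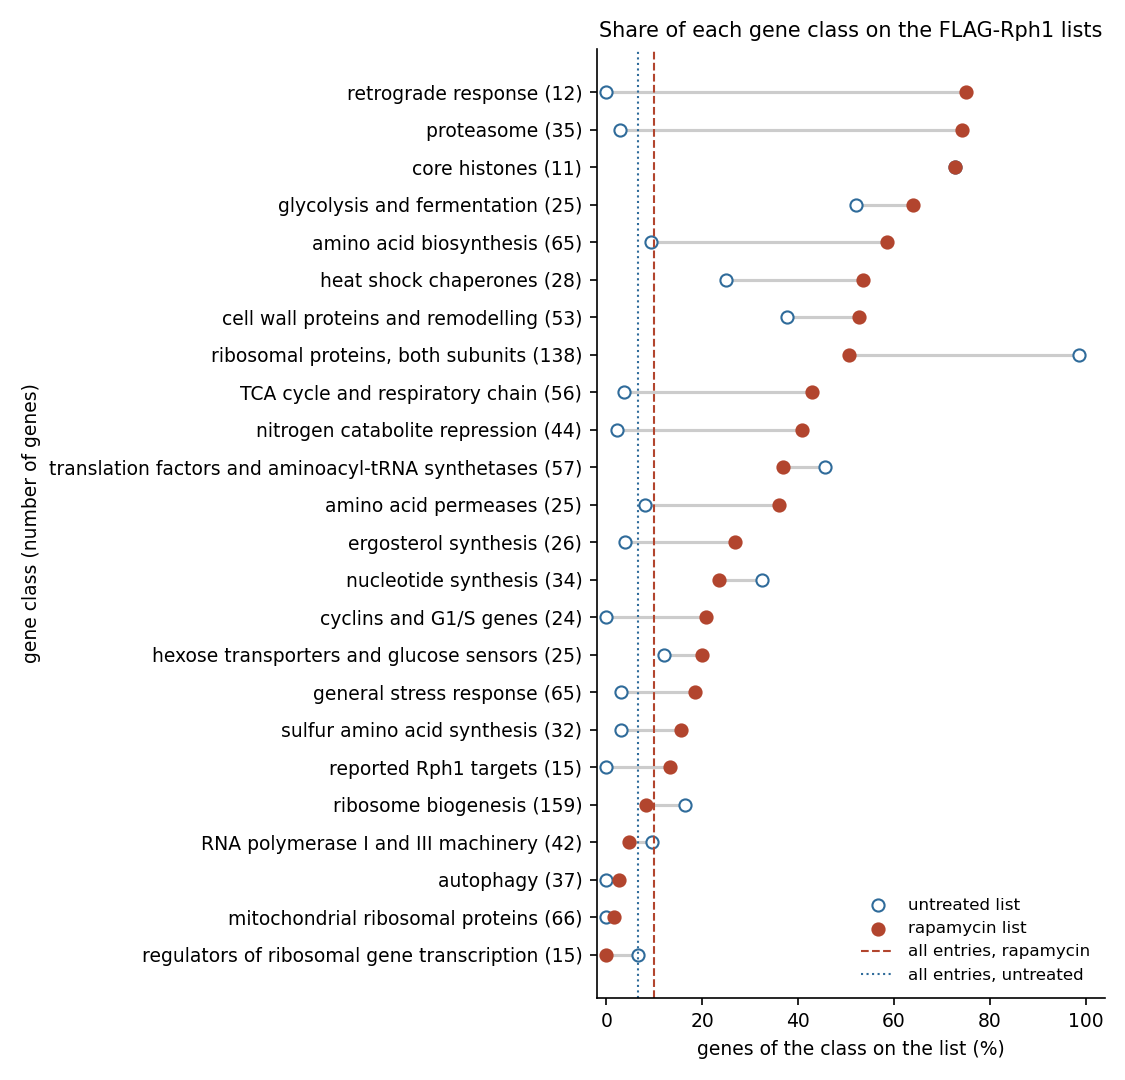
Percent of the genes of each class found on the rapamycin list (filled points) and on the untreated list (open points), with the class size in brackets and dashed and dotted lines at the shares of all entries, 10% and 6.61%. Ribosomal protein genes were at 98.6% untreated and 50.7% with rapamycin, while retrograde, proteasome, amino acid and nitrogen genes lie far to the right with rapamycin.

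Ribosomal protein genes had the opposite pattern. All but 2 of the 138, 136, were on the untreated list, and 70 were on the rapamycin list, each of them on both lists. Over those 70, the median was 19.9 with rapamycin and 72.3 untreated, and 69 had the smaller value with rapamycin. RPL40B, which encodes a ubiquitin and ribosomal protein fusion, was the exception at 141 against 41. Its value of 141 was shared with the neighbouring gene PTR2, which was not on the untreated list, so which gene it belongs to is uncertain. The next 2 of the large subunit were RPL9B at 100 against 118 and RPL10 at 91.2 against 176, and the small subunit was led by RPS14B at 65.7 against 95.1. Large-subunit genes were listed at 39 of 81 and small-subunit genes at 31 of 57. Ribosome biogenesis genes gave 13 of 159 with rapamycin against 26 untreated, near the 10% of all entries, with the RNA helicase gene DBP2 at 118. Of 15 genes that regulate ribosomal gene transcription, 0 were listed with rapamycin, and of 42 that encode RNA polymerase I or III subunits and factors 2 were, RPC19 and RPC10.

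Non-coding genes followed separate courses. Of the 22 ribosomal RNA entries, 8 were on the untreated list, with a median of 772 and a maximum of 773, and 0 were on the rapamycin list. Because the repeat copies of ribosomal DNA are near-identical, their values depend on how multiply mapping reads were treated, which is not given in the sources used here. Transfer RNA genes gave 25 of 299 with rapamycin and 5 untreated, and 4 were on both lists. Those shares, 8.36% and 1.67%, were under the 10% and 6.61% of all entries. The highest, tR(UCU)E and SUF1, share their values with GCN4 and ZEO1. Small nuclear and nucleolar RNA genes gave 46 of 82 with rapamycin and 65 untreated. Of the 43 on both lists, 11 were larger with rapamycin, among them LSR1, the U2 spliceosomal RNA gene, at 264 against 77 in a value shared with COQ21, and SNR37, a guide RNA of pseudouridylation, at 102 against 79.8. The locus of 7 genes was the snoRNA cluster SNR78 to SNR73 with YMR013W-A, at 93.2 against 158.

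Among the genes on both lists, 124 were larger with rapamycin and 152 were larger untreated. The largest ratios of rapamycin to untreated were 39.2 for ASN1, 29.3 for GLN1, 26.2 for NCW1, 23.3 for the Hsp90 gene HSC82, 17.7 for SED1 and 13.5 for HPF1. The smallest were 0.121 for the locus of TEF4 and SNR38, 0.123 for RPL32, 0.129 for the locus of RPL22A and BUD28, and 0.134 for RPS1B. All 4 of these loci hold genes of the translation machinery. Values on the 2 lists were set side by side as deposited, and whether the authors scaled them to each other is not given in the sources used here.

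**Figure D3:**
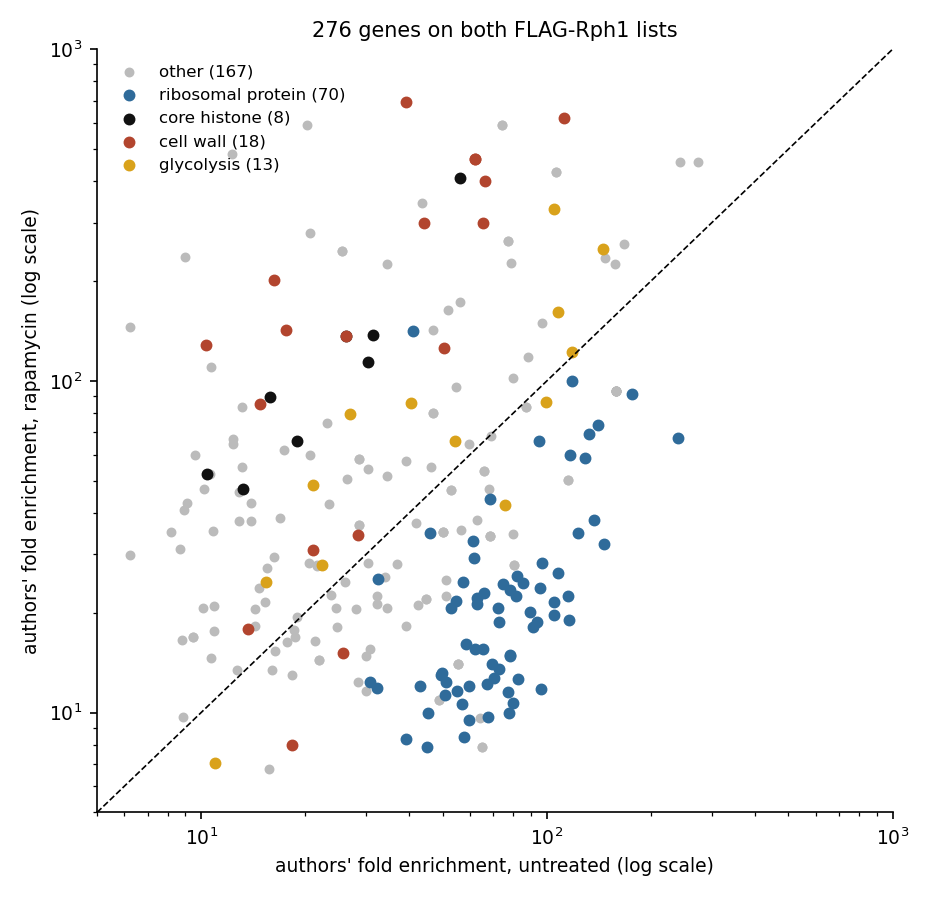
Authors' fold enrichment with rapamycin (vertical, log) against untreated (horizontal, log) for the 276 genes on both lists, with a dashed line of equal values. Of the 70 ribosomal protein genes 69 lie below the line, and all 8 core histone genes lie above it.

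Of 15 genes reported in earlier work as repressed by Rph1, 2 were listed with rapamycin, or 13.3% against 10% of all entries, and 0 untreated: UBI4 at 188 and RNR1, the large subunit gene of ribonucleotide reductase, at 47. The photolyase gene PHR1, the autophagy genes ATG7, ATG8, ATG9, ATG14 and ATG29, the stress genes GPD1, CTT1, GPM2 and HSP12, and RNR2, RNR3 and RNR4 were not listed. Of 37 autophagy genes, 1 was listed, ATG41 at 110. General stress genes gave 12 of 65, with the glycerol-phosphatase gene GPP1 at 142, HOR7 at 116 and the aldehyde dehydrogenase gene ALD2 at 76.7. RPH1 itself was listed with rapamycin, at 17, and not untreated. Of the cyclin and G1/S genes, 5 of 24 were listed with rapamycin and 0 untreated, namely PCL1 at 95.9, CLN2 at 48.9, CLN1 at 43.6, FAR1 at 39.9 and CLB1 at 9.59. The value of PCL1 was shared with the neighbouring small nucleolar RNA gene SNR40, which was also on the untreated list.

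Listed genes with a known length were for the most part ones with a high RNA level, which is not a direct measure of transcription. All genes with a known length were ranked by RNA level per kilobase in wild type with rapamycin and cut into 10 bins of equal size. In the top bin 301 of 596 genes, or 50.5%, were listed, in the next 19.3% and in the lowest 1.51%. With the bins drawn in untreated cells, 46.3% of the top bin and 6.38% of the next were on the untreated list. In wild type with rapamycin, the median level of the 563 listed genes with a length was 358 and 349 CPM per kilobase in the 2 libraries, against 47.3 and 48.6 for 5956 genes. Across the listed genes, fold enrichment with rapamycin had a Spearman correlation of 0.41 with the RNA level in rapamycin and 0.09 with the untreated level (563 genes). The untreated values had 0.48 with the untreated level and 0.13 with the rapamycin level (345 genes). Genes of 1 list share the same immunoprecipitations and inputs and are not independent replicates, so these figures describe the lists only. Whether high transcription by itself raises the fold enrichment was not tested, and no control immunoprecipitation is named with which to set the 2 apart.

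Neighbouring genes that shared a value formed 91 pairs. In 50 of them the genes overlap. Of the 17 that lie apart and whose names give the strand, 11 were convergent, 6 tandem and 0 divergent, whereas 25.8%, 48.2% and 26% of 5885 adjacent gene pairs in the RefSeq table were convergent, tandem and divergent. Over the pairs that do not overlap, the median distance between genes was 162 bp and the largest 574 bp. The rule by which the authors tied peaks to genes is not given in the sources used here, and its part in the orientation of the pairs was not tested.

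Rapamycin changed the RNA of most listed genes in both directions. Of the 705, 689 were in the count tables and 643 passed the filter on low counts; of the 16 not counted, CCW22 was the highest, at 247. Of the 643, edgeR called 291 higher with rapamycin in wild type, or 45.3%, against 34.8% of all genes tested, and 233 lower, or 36.2%, against 33.9% of all. The direction differed between the genes with and without an untreated value. Of the 385 tested genes on the rapamycin list alone, 254 were higher and 49 lower, with a median log2 fold change of 0.78. Of the 258 on both lists, 37 were higher and 184 lower, with a median of -1.47. The 167 on the untreated list alone had 3 higher and 156 lower, with a median of -2.56, and all genes tested had a median of 0.02. Over the 258 genes on both lists, the log2 ratio of the fold enrichments had a Spearman correlation of 0.78 with the RNA log2 fold change, and 0.80 when 1 gene was taken per locus (227 loci), as a description of genes that are not independent.

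Among the leading genes, CIT2 had 148 and 66.8 CPM, counts relative to the scaled library total, in untreated wild type and 2797 and 3044 with rapamycin, a log2 fold change of 4.77 ± 0.40 (SE, n = 2 libraries a group, edgeR adjusted p = 2.11e-05). Its groups lay far apart. GAP1 rose from 12.4 and 14.9 CPM to 610 and 817, a log2 fold change of 5.70 ± 0.23 (edgeR adjusted p = 1.14e-06). UGA4 rose most of all listed genes of at least 10 CPM, from 6.16 and 7.13 to 845 and 968 CPM (log2 fold change 7.09 ± 0.14, edgeR adjusted p = 1.89e-07). The 18 listed nitrogen genes and the 9 listed retrograde genes all rose in edgeR and DESeq2, and edgeR also called higher 23 of the 24 listed energy genes, 7 of the 8 core histone genes and 17 of the 26 listed proteasome genes. Of all genes tested, 34.8% were called higher. Among class members not listed, 15 of 22 nitrogen genes were higher and 3 lower, and 0 of 3 retrograde genes were higher and 2 lower. Of 32 unlisted energy genes 31 were higher and 1 lower. For 3 other histone genes and 9 unlisted proteasome genes, 2 and 4 were higher and 0 lower. Against this, edgeR called lower all 70 listed genes for ribosomal proteins, at a median of -2.99, and 67 of the 68 not listed. Of 16 listed glycolytic genes 2 were higher and 12 lower, although 10 of the 13 on both lists had the larger fold enrichment with rapamycin. Among 20 tested listed genes for translation factors and aminoacyl-tRNA synthetases 0 were higher and 19 lower. The 15 listed chaperone genes gave 3 higher and 7 lower. Of all genes tested, 33.9% were called lower. CSS1, at rank 3 by fold enrichment, had 280 and 300 CPM untreated and 295 and 392 with rapamycin, a difference that did not pass (log2 fold change 0.24 ± 0.15, edgeR adjusted p = 0.176). CCW12 and HSP150, with fold enrichments of 619 and 468, also had differences that did not pass, at -0.14 ± 0.22 and 0.27 ± 0.16.

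Without rapamycin, the deletion changed few listed genes. edgeR called 24 of the 643 higher, or 3.73%, against 4.88% of all genes tested, and 40 lower, or 6.22%, against 2.53% of all. The lower ones included 16 of the 24 listed genes of the TCA cycle and respiratory chain. Among the higher ones was AHP1, at 953 and 823 CPM in wild type and 3181 and 3287 in the deletion (log2 fold change 1.86 ± 0.16, edgeR adjusted p = 0.002). The vacuolar protease gene PEP4 rose from 321 and 257 to 757 and 672 CPM (1.31 ± 0.14, edgeR adjusted p = 0.00384). UBI4 had 176 and 108 CPM in wild type and 360 and 279 in the deletion (1.17 ± 0.22, edgeR adjusted p = 0.0225), a call lost in the fit to the untreated libraries alone (edgeR adjusted p = 0.11) and without untreated deletion replicate 1 (edgeR adjusted p = 0.136). ARO9 and ARO10, which encode enzymes of aromatic amino acid breakdown, fell by 1.40 and 1.41 on the log2 scale (edgeR adjusted p = 0.0058 and 0.0112). A fit to the untreated libraries alone kept 2 higher and 2 lower, and ended the calls of PEP4, ARO9 and ARO10 (edgeR adjusted p = 0.0655, 0.0741 and 0.0793). Leaving out untreated deletion replicate 1 gave 5 higher and 4 lower and ended the calls of ARO9 and ARO10 (edgeR adjusted p = 0.0518 and 0.0787). Leaving out untreated deletion replicate 2 gave 9 and 12 and ended that of ARO10 (edgeR adjusted p = 0.0537). Leaving out untreated wild type replicate 2 gave 12 higher, and leaving out either deletion library with rapamycin gave 24 lower.

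With rapamycin, the deletion was called lower for 179 of the 643 listed genes, or 27.8%, against 13.5% of all genes tested, and higher for 94, or 14.6%, against 14.4% of all. On the rapamycin list alone, 150 of 385 genes were lower and 13 higher, with a median log2 difference of -0.33. On both lists, 29 of 258 were lower and 81 higher, with a median of 0.29, and on the untreated list alone 2 of 167 were lower and 90 higher, with a median of 0.53. The genes on neither list gave 653 lower and 707 higher of 5359, with a median of 0.00. By quartile group of the fold enrichment, from highest to lowest, 53 of 174, 43 of 156, 50 of 156 and 33 of 157 were lower. These comparisons and the rapamycin response in wild type share the wild-type libraries with rapamycin, so the 2 sets of values are given side by side and not related to each other. The counts depended on the libraries: leaving out deletion replicate 1 with rapamycin gave 81 lower and 31 higher, leaving out deletion replicate 2 gave 105 and 60, and leaving out wild type replicate 2 with rapamycin gave 42 higher.

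**Figure D4:**
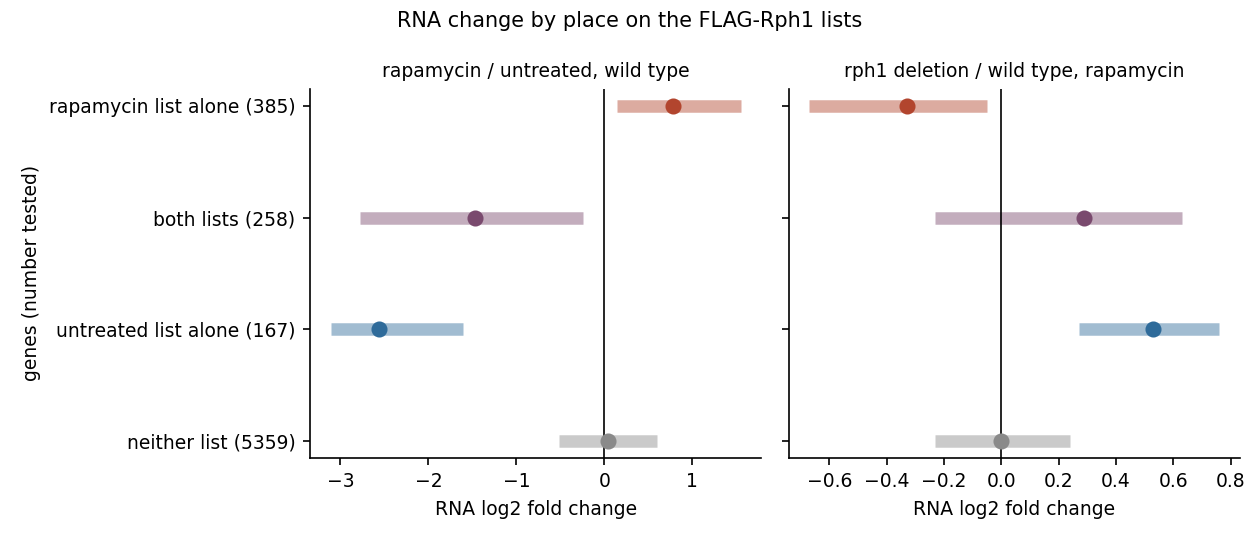
Median (points) and quartiles (bars) of the RNA log2 fold change for genes on the rapamycin list alone, on both lists, on the untreated list alone and on neither, for rapamycin against untreated in wild type (left) and rph1 deletion against wild type with rapamycin (right), on separate horizontal scales. The rapamycin-only genes have medians of 0.78 and -0.33, and the untreated-only genes -2.56 and 0.53; the panels share the wild-type libraries with rapamycin.

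Genes lower in the deletion with rapamycin included members of the amino acid, nitrogen and energy lists. Of the 38 listed amino acid biosynthesis genes, 25 were lower, with a median of -0.62, and of the 26 that were tested and not listed 8 were lower and 1 higher. No listed one was called higher by edgeR, by an unadjusted p under 0.05 or by DESeq2. The 25 became 15 without either deletion library with rapamycin, and the 8 became 2; without wild type replicate 1 or 2 with rapamycin the 8 became 3, and without untreated deletion replicate 1 it became 5. With rapamycin ARG4 had 1971 and 2353 CPM in wild type, whereas the deletion had 1016 and 1012, a log2 difference of -1.09 ± 0.12 (edgeR adjusted p = 0.00133). Of 18 listed nitrogen genes, 10 were lower, or 4 without wild type replicate 2 or without either deletion library with rapamycin, while edgeR called 0 higher after adjustment, against 1 by DESeq2 and 1 when its p was left unadjusted. Of the 22 nitrogen genes tested and not listed, 2 were lower and 7 higher. Their median was 0.16, against -0.40 for the 18 listed, and these counts too depended on the libraries. UGA1 fell from 3531 and 4083 to 1678 and 1571 CPM, a log2 difference of -1.23 ± 0.17 (edgeR adjusted p = 0.00244), and UGA4 from 845 and 968 to 367 and 366 (-1.31 ± 0.11, edgeR adjusted p = 0.000613). In both genes the libraries of the 2 genotypes did not overlap. GAP1, by contrast, had 610 and 817 CPM in wild type and 646 and 811 in the deletion, with overlapping libraries and a log2 difference of 0.03 ± 0.18.

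Of the 24 listed TCA cycle and respiratory genes, 18 were lower and 1 higher, with a median of -0.87, and 24 of the 32 not listed were lower, with a median of -0.80. In untreated cells the deletion was also called lower for 16 of the 24 and higher for 2, with a median of -0.60. Of the 32 not listed, 11 were lower and 2 higher there. The interaction was called negative for 4 of the 24 and 15 of the 32, and positive for 0 of either. Leaving out any 1 library with rapamycin ended the higher call and left 16 to 18 of the listed ones lower, and leaving out either untreated wild-type library gave 2 higher. IDP1 had 1029 and 1152 CPM in wild type and 448 and 444 in the deletion (-1.29 ± 0.10, edgeR adjusted p = 0.000584). ATP2 fell from 1589 and 1499 to 874 and 788 CPM (-0.89 ± 0.14, edgeR adjusted p = 0.00364). Proteasome genes gave 11 of 26 listed lower, at a median of -0.31, and 3 of the 9 not listed. The 11 fell to 1 without deletion replicate 1 with rapamycin, 3 without deletion replicate 2, 3 without wild type replicate 1 and 4 without wild type replicate 2 with rapamycin, and the 3 fell to 0, 0, 0 and 1 in the same order.

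Of the 4 retrograde genes with the highest fold enrichment, DLD3 was called lower in the deletion with rapamycin, while CIT2, PYC1 and CIT1 gave differences that did not pass. DLD3 had 2625 and 3289 CPM in wild type against 2072 and 2163, a log2 difference of -0.48 ± 0.15 (edgeR adjusted p = 0.0449). That call was lost under 7 of 13 alternatives, with an edgeR adjusted p of 0.0521 with RLE scaling and up to 0.232 without wild type replicate 2 with rapamycin. It was also lost in the fit to the 2 groups alone (edgeR adjusted p = 0.058), without either untreated deletion library (0.0791 and 0.0787) and without either deletion library with rapamycin (0.219 and 0.152). CIT2 had 2526 and 2970 CPM in the deletion with rapamycin against 2797 and 3044 in wild type, a log2 difference of -0.09 ± 0.34 (edgeR adjusted p = 0.874). For PYC1 the difference was -0.40 ± 0.20 (edgeR adjusted p = 0.17) and for CIT1 -0.24 ± 0.26 (edgeR adjusted p = 0.531). Of the 9 listed retrograde genes, 3 were lower and 1 was higher, which became 1 and 0 without wild type replicate 2 or either deletion library with rapamycin, and 2 and 0 without wild type replicate 1 with rapamycin. Without either untreated wild-type library 2 were higher. Of the first 3 loci of the list 1 was called, CSS1, and it was higher in the deletion: wild type had 295 and 392 CPM with rapamycin, whereas the deletion had 751 and 637 (1.01 ± 0.15, edgeR adjusted p = 0.00289). SPO24, second by fold enrichment, had a log2 difference of -0.33 ± 0.34 (edgeR adjusted p = 0.505).

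The largest decreases among listed genes of at least 10 CPM, apart from RPH1, were in ALD2, JEN1, SNZ1, PCL1 and CLN1. With rapamycin ALD2 had 2740 and 2777 CPM in wild type, whereas the deletion had 531 and 483 (-2.44 ± 0.18, edgeR adjusted p = 0.000584). JEN1, the lactate permease gene with a fold enrichment of 32.9, fell from 404 and 389 to 83.9 and 86.3 CPM (-2.22 ± 0.25, edgeR adjusted p = 0.00133). SNZ1, a vitamin B6 synthesis gene with a fold enrichment of 29.3, fell from 1139 and 1492 to 266 and 317 CPM (-2.17 ± 0.16, edgeR adjusted p = 0.000584). In all 3 every wild-type library lay above every deletion library. The G1 cyclin gene CLN1 fell from 206 and 251 to 51.1 and 67.1 CPM (-1.95 ± 0.19, edgeR adjusted p = 0.000914), and CLN2 from 190 and 207 to 107 and 110 (-0.87 ± 0.10, edgeR adjusted p = 0.00156). PCL1, a cyclin gene of the kinase Pho85, had 50.4 and 95.4 CPM against 14.6 and 20.3 (-2.06 ± 0.38, edgeR adjusted p = 0.00663), a call lost without deletion replicate 1 with rapamycin (-1.81, edgeR adjusted p = 0.0602).

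**Figure D5:**
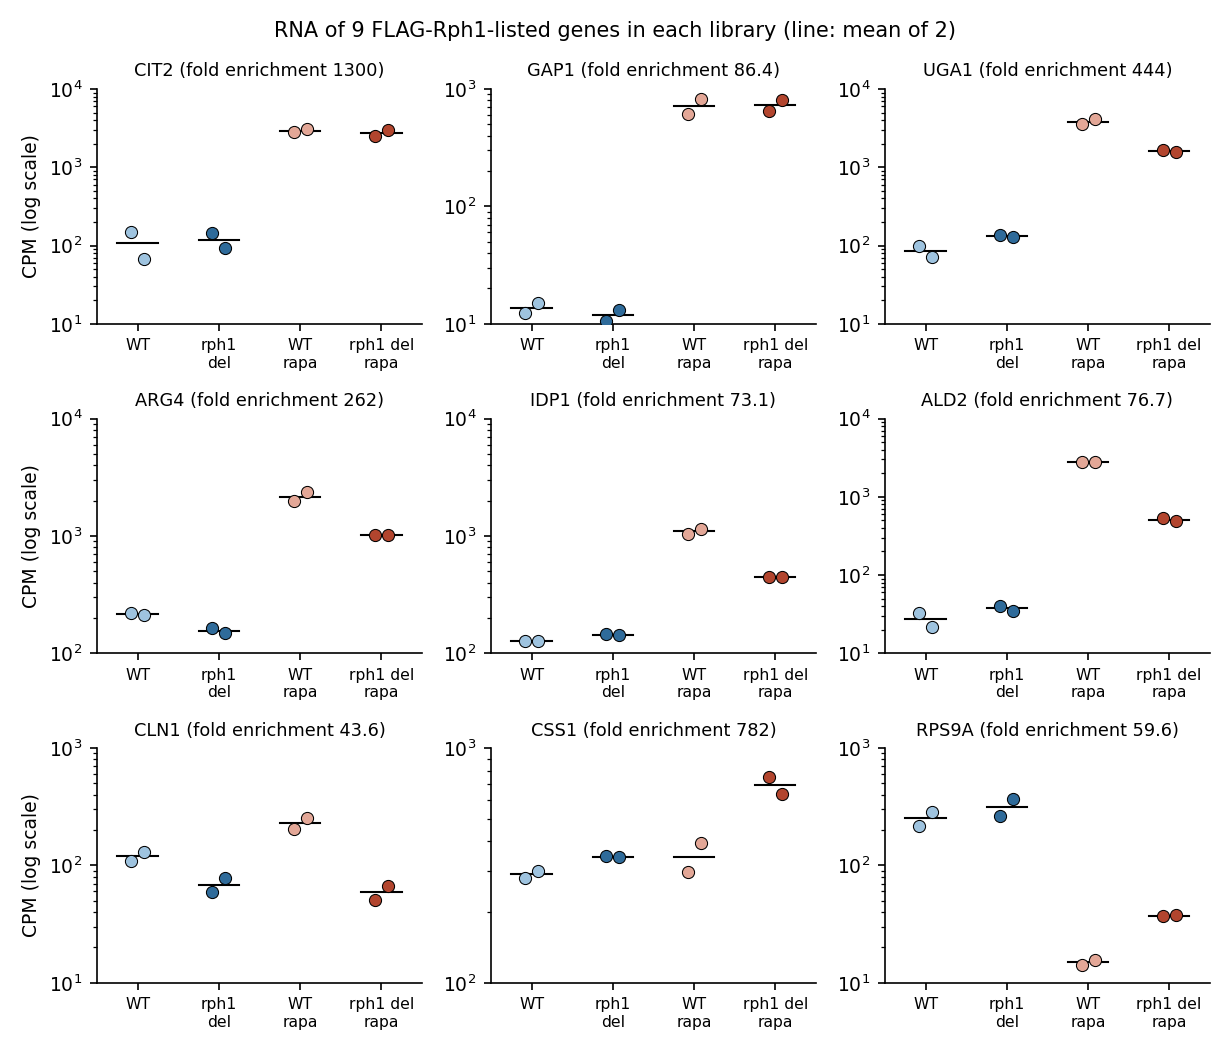
RNA level in CPM (vertical log axis, a separate range for each panel) in each of the 8 libraries for 9 listed genes, with the mean of the 2 libraries of a group as a line and the fold enrichment with rapamycin above each panel. CIT2 and GAP1 overlap between genotypes with rapamycin, UGA1, ARG4, IDP1, ALD2 and CLN1 lie lower in the deletion, and CSS1 and RPS9A lie higher.

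Genes higher in the deletion with rapamycin included ribosomal protein and ribosome biogenesis genes. Of the 70 listed ribosomal protein genes, 44 were higher, with a median of 0.61, and of the 68 not listed 42 were higher, with a median of 0.57. None of either was lower by edgeR, by an unadjusted p under 0.05 or by DESeq2. The counts depended on the libraries: without deletion replicate 1 with rapamycin 7 and 3 were left, without wild type replicate 2 with rapamycin 15 and 11, and without deletion replicate 2 with rapamycin 30 and 28. With rapamycin RPS9A had 14.2 and 15.6 CPM in wild type, whereas the deletion had 36.8 and 37.5 (1.32 ± 0.19, edgeR adjusted p = 0.00269), both far under the 218 and 284 of untreated wild type. Of 13 listed ribosome biogenesis genes 9 were higher, and of 146 not listed 120. Without wild type replicate 2, deletion replicate 1 or deletion replicate 2 with rapamycin the 9 became 4, 4 and 5. DBP2 rose from 43.4 and 59.7 to 165 and 167 CPM (1.69 ± 0.24, edgeR adjusted p = 0.00262). SNR37 had 4.49 and 4.91 CPM against 24 and 14.5 (2.03 ± 0.25, edgeR adjusted p = 0.00168) and LSR1 4.23 and 5.19 against 18.2 and 12.9 (1.72 ± 0.23, edgeR adjusted p = 0.00203). Reads from ribosomal protein paralogues and from overlapping genes can be assigned to the wrong copy, which the deposited counts do not resolve.

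Cell wall genes moved in both directions with the deletion, 12 of 28 lower and 4 higher, with 5 lower without deletion replicate 1 with rapamycin and 7 without deletion replicate 2 or wild type replicate 2. Of the 25 cell wall genes tested and not listed, 7 were lower and 5 higher, with a median of 0.17 against -0.40 for the 28 listed. Over all genes tested, 13.5% were lower and 14.4% higher. EGT2, a cell separation gene with a fold enrichment of 15.1, had the largest increase of the listed cell wall genes. It had 282 and 295 CPM in rapamycin-treated wild type against 754 and 635 for the deletion (1.27 ± 0.13, edgeR adjusted p = 0.00115). Of the 8 core histone genes 3 were lower, with a median of -0.42, and 0, 1, 1 and 2 were lower without deletion replicate 1, deletion replicate 2, wild type replicate 1 and wild type replicate 2 with rapamycin. Of 16 listed glycolytic genes 1 was lower. The 2 listed Rph1 targets of earlier work, UBI4 and RNR1, had log2 differences of 0.04 ± 0.22 and -0.79 ± 0.25 (edgeR adjusted p = 0.926 and 0.0501). DESeq2 and the unadjusted edgeR p called 1 of the 2 lower, as did edgeR without either untreated wild-type library or without wild type replicate 1 with rapamycin. Of the 13 not listed, edgeR called 0 after adjustment, against 2 higher and 0 lower by DESeq2 and the same when p was left unadjusted. Without either untreated wild-type library edgeR called 2 of the 13 higher and 2 lower. ADK2, the neighbour of RPH1, was not listed and was higher in the deletion with rapamycin, at 55.4 and 54.3 CPM against 29.8 and 34.3 (0.78 ± 0.13, edgeR adjusted p = 0.005), and the other neighbour, CCA1, did not pass (0.05 ± 0.12).

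The rapamycin change itself differed between the genotypes for part of the list. The interaction, which is the log2 change with rapamycin of the deletion less that of wild type, was called positive for 58 of the 643 listed genes, or 9.02%, against 7.04% of all genes tested, and negative for 83, or 12.9%, against 6.08% of all. On the rapamycin list alone 4 of 385 were positive and 74 negative. On both lists 54 of 258 were positive and 9 negative, and on the untreated list alone 66 of 167 were positive and 1 negative. All 4 groups enter this comparison, so it shares libraries with every other one here. Leaving out a library lowered the counts of the rapamycin list by more than 1.5 times for every library except untreated wild type replicate 1, and, for the positive count, wild type replicate 1 with rapamycin. Without deletion replicate 1 with rapamycin 7 were positive and 16 negative, and without deletion replicate 2 18 and 34. The counts were 14 and 36 without untreated deletion replicate 1, 21 and 36 without untreated deletion replicate 2, 24 and 51 without untreated wild type replicate 2, and 20 and 41 without wild type replicate 2 with rapamycin. Without wild type replicate 1 with rapamycin 55 were negative.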

How the data were processed

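RNA-seq and FLAG-Rph1 ChIP of yeast BY4741 were analysed from the deposited files. The authors deposited whole-number read counts for RNA, by gene and library. For ChIP they deposited a fold enrichment (a ratio, per the file headers) beside each listed gene; the control, any pooling of replicates and the rule from peak to gene are not given in the sources used here. The submitters' processing notes name Trimmomatic 0.38, STAR 2.5.3a, Bowtie2 2.3.4.3, featureCounts 1.6.3, DESeq2 1.24.0, MACS2 2.2.1 and the build sacCer3. Systematic names were matched to the RefSeq table of assembly R64, which held 579 of the 705 listed genes, and in all 579 the listed start and end equalled those of the gene.

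Counts were filtered with filterByExpr (minimum count 10), scaled by TMM and fitted with edgeR 4.0.16 in R 4.3.3 (glmQLFit, glmQLFTest) over all 8 libraries with a mean per group, which left 6169 genes. A gene was called at a Benjamini-Hochberg adjusted p under 0.05, computed over all genes tested in that comparison. CPM uses the scaled library size, SE comes from the F statistic, and every log2 value is relative to the scaled total. The procedure was tested on simulated data in which 200 genes were changed, in the deletion with rapamycin only. In the data 891 genes were called higher and 834 lower in that comparison, so the simulation does not measure performance at that scale. Alternatives were other scaling, no filter, DESeq2 1.42.0, the replicate number as a block, fewer groups, left-out libraries (with recounts per gene class added after seeing the data), the upper part of the list and 1 gene per locus.

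The members, the 29 gene lists (1190 entries, of which 9 were not matched or were second names) and the rule for named genes were chosen with earlier results of these data known, so no count is an independent test of a list. The rule took the genes of the 20 highest loci, the 8 highest loci without an untreated value, the 6 highest and 4 lowest ratios between lists, up to 3 members of each list, the largest changes in each comparison at a mean of at least 10 CPM, RPH1 with its neighbours and reported Rph1 targets. Other genes named with a fold enrichment were chosen after their values were seen. Promoter sequences and RNA polymerase II ChIP were not analysed here.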

Additional observations from a re-analysis of the deposited data

Results flagged for a closer look

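For 8 listed genes, those with the largest interactions of at least 10 CPM, the rapamycin change differed between the genotypes by a direct test of the difference (edgeR interaction, adjusted over all genes). The values are the log2 change with rapamycin of the deletion less that of wild type. Negative values were found for ALD2 (-2.91, edgeR adjusted p = 0.00554), UGA2 (-2.53, edgeR adjusted p = 0.00622), SNZ1 (-2.50, edgeR adjusted p = 0.00554) and the glycerol-phosphatase gene GPP2 (-2.32, edgeR adjusted p = 0.00627).

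Untreated, UGA2 had 44.5 and 35.8 CPM in wild type against 131 and 96.5 in the deletion. With rapamycin it had 3429 and 3857 CPM in wild type against 1853 and 1711. For GPP2 the untreated values were 53.2 and 33.8 against 166 and 166 CPM, and those with rapamycin 467 and 516 against 372 and 378. Without rapamycin edgeR called both genes higher in the deletion (edgeR adjusted p = 0.0058 and 0.00293), calls that were lost in a fit to the untreated libraries alone (edgeR adjusted p = 0.0672 and 0.0655). With rapamycin UGA2 was called lower (-1.03, edgeR adjusted p = 0.00493), while for GPP2 the difference did not pass (-0.39, edgeR adjusted p = 0.146).

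Positive values were found for HXT2, a high-affinity hexose transporter gene (2.19, edgeR adjusted p = 0.00631), and for the small nucleolar RNA genes SNR37 (2.08, edgeR adjusted p = 0.0103), SNR44 (1.87, edgeR adjusted p = 0.00627) and SNR30 (1.84, edgeR adjusted p = 0.0212). Untreated, HXT2 had 951 and 704 CPM in wild type against 411 and 406 in the deletion, and with rapamycin 547 and 472 against 999.8 and 1288. SNR44 had 98.5 and 105 against 65.9 and 67.3 CPM untreated, and 3.2 and 2.62 against 7.96 and 6.05 with rapamycin, where both genotypes were low. The call of SNR30 was lost without untreated deletion replicate 1 (1.77, edgeR adjusted p = 0.0667), without wild type replicate 1 with rapamycin (1.62, edgeR adjusted p = 0.0691) and without deletion replicate 1 with rapamycin (1.34, edgeR adjusted p = 0.0518).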

How the results depend on the processing

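Of 122 alternative counts, 78 stayed within 1.5 times of the reported one. Other scaling and no filter on low counts changed no count beyond that, nor did counting 1 gene per locus. With the replicate block (replicate number as a paired term) the listed genes called in the deletion without rapamycin rose to 48 higher and 79 lower, and those of the interaction to 122 and 151; it moved no other count beyond 1.5 times. Deviations of same-numbered libraries correlated at 0.188 to 0.556 over the pairs of groups, but there are only 2 numbers and no label ties them to a shared culture or day. DESeq2 gave 46 higher and 64 lower for the deletion without rapamycin and 111 positive interactions. Fitting only the 2 groups compared left 2 higher and 2 lower for the deletion without rapamycin.

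Restricting to the 353 genes at or above the median fold enrichment, which by construction leaves fewer genes, gave 167 higher and 95 lower for rapamycin in wild type, 11 and 19 for the deletion without rapamycin, 33 and 94 for the deletion with rapamycin, 21 and 48 for the interaction, 163 genes also on the untreated list and 19 ribosomal protein genes. Leaving out 1 library at a time gave 5 to 30 higher and 4 to 35 lower for the deletion without rapamycin, 31 to 106 higher and 81 to 200 lower for it with rapamycin, 7 to 70 positive and 16 to 103 negative interactions, and 273 to 288 higher and 220 to 236 lower for rapamycin in wild type. In these fits a lone library is assumed to vary like the other groups. The planned motif counts were not run. With 2 libraries a group, small differences were not detectable, and the ChIP lists carry no depth or error.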
